A study of Mus musculus with 6 samples.

Results

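Immediate early genes are genes whose transcription is switched on within minutes of a stimulus, without new protein synthesis. The 10 described here, Fos, Fosb, Fosl2, Junb, Jund, Egr1, Egr3, Ier2, Btg2 and Nr4a1, were matched by symbol to the 54838 genes of the deposited count table, and all 10 were found and passed the low-count filter. The RNA came from sciatic nerves of mice of strain C57 Bl at postnatal day 3. The 3 control libraries carry the genotype WT, and the 3 mutant libraries the genotype CnpCre Actl6afl/fl, called cKO here, in which Cre recombinase under the control of Cnp, a gene of myelinating glia, acts on a floxed Actl6a. The Actl6a product, BAF53a, belongs to the BAF chromatin remodelling complex and resembles actin. The labels give neither the other alleles of the WT mice nor whether a library came from 1 animal or several, so a p-value here weighs only library-to-library spread, which may be technical. Cells outside the Cnp lineage keep Actl6a in cKO nerves.

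Serum, growth factors, calcium, injury and depolarisation reach these genes through ERK and other MAP kinases, which activate serum response factor with its Elk partners, and through CREB. The induced proteins are mostly transcription factors. Fos and Jun family proteins pair as AP-1, Egr proteins are zinc finger factors, and Nr4a proteins are orphan nuclear receptors. Most of their transcripts are short-lived, so a level can follow recent signalling, which was not measured here. In Schwann cells Jun is known for holding back myelination and driving repair, whereas Egr2 drives myelin genes, and Egr1 and Egr3 have been linked to the immature and non-myelinating state.

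Libraries held 31404107 to 36760296 counts. The targeted gene, Actl6a, held 48.6, 53.3 and 46.2 CPM in the libraries labelled WT and 42.4, 47.6 and 41.5 CPM in those labelled CnpCre Actl6afl/fl, and was not called (log2 fold change -0.17 ± 0.10 SE, edgeR adjusted p = 0.243). A count over the whole gene does not separate intact from partly deleted transcripts or Schwann cells from other cells, and so does not check the genotype labels. The Schwann cell markers fixed for a check of the tissue were all detected, and their summed share of the counts was 5.71 to 6.11% in WT and 0.584 to 1.36% in cKO libraries. In bulk nerve, fewer cells of a type and less RNA per cell cannot be told apart. cKO replicate 2 stood apart: skeletal muscle markers took 7.25% of its counts, against 0.441 to 0.687% in the other 5 libraries, and the counts of called genes in each list below are therefore also given without it. Expression is given as TMM-normalised CPM, counts scaled to the effective size of each library, and a gene is said to have risen or fallen where the edgeR quasi-likelihood adjusted p over the 18775 genes tested was below 0.05.

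Of the 10 immediate early genes, 5 rose in cKO nerves (Fos, Fosl2, Junb, Jund and Btg2) and 0 fell, while 8.55% of all genes tested were called higher and 10.3% lower. The 10 were chosen with earlier results of these data known, so the contrast with all genes is a description. At an unadjusted p below 0.05 edgeR had 7 higher and 0 lower, against 17.2% and 17.3% of all genes. DESeq2 called 6 higher, Egr1 being the addition, and 0 lower, against 10.5% and 11.5% of the genes it tested. The median log2 fold change of the 10 was 0.54, against 0.04 over all genes tested, and 8 of the 10 estimates were above 0. In 7 of the 10 every cKO library lay above every WT library, a pattern seen in 21.0% of all genes tested, and in 1, Nr4a1, every cKO library lay below, as in 21.7% of all genes. Without cKO replicate 2, 6 rose and 0 fell (17.8% of all genes higher, 17.6% lower), Ier2 being the addition, and the median was 0.64.

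The calls depended on single libraries, above all WT ones. Without WT replicate 2 or WT replicate 3, 0 of the 10 were called higher by edgeR, although 6 and 7 were higher at an unadjusted p below 0.05, as were 11.9% and 12% of all genes. In those fits the share of all genes called higher dropped to 2.50% and 2.36%. Without WT replicate 1, 2 were called, Fos and Egr1 (2.33% of all genes), without cKO replicate 3 also 2, Fos and Btg2 (4.38%), and without cKO replicate 1, 4 (7.02%). Other edgeR fits of all 6 libraries changed the number called less. Both DESeq2's size factors (8.51% of all genes higher) and upper quartile factors (8.55%) gave 4 called. So did leaving out the low-count filter (4.57%) and adding a block for the replicate number (3.96%). The median log2 fold change of the 10 stayed between 0.45 and 0.69 in these 6 fits, and the direction of each of the 10 was kept.

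**Figure D1:**
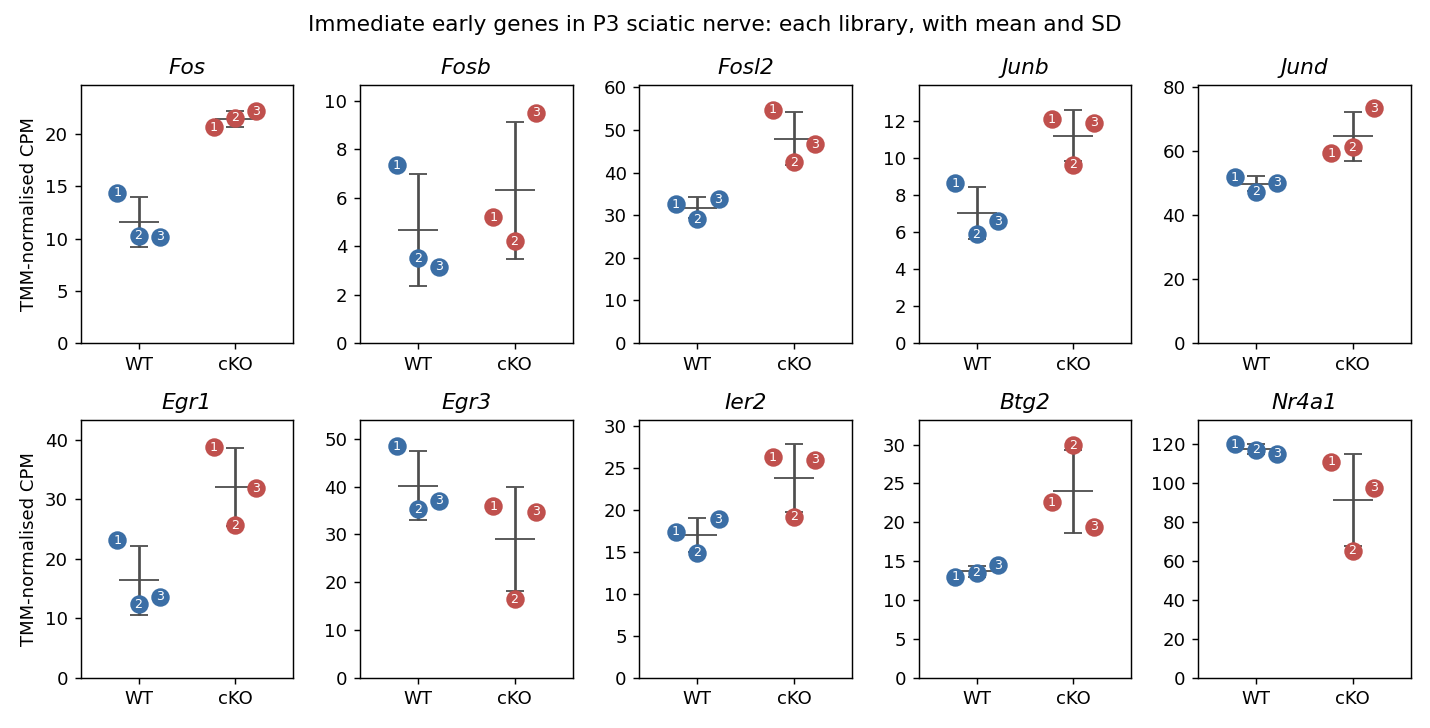
TMM-normalised CPM of the 10 genes (vertical axes, starting at 0) in the 3 WT (blue) and 3 cKO (red) libraries, each point marked with its replicate number, with the mean and SD of each group. The cKO points of Fos, Fosl2, Junb, Jund, Egr1, Ier2 and Btg2 all lie above the WT points, those of Nr4a1 all lie below, and those of Fosb and Egr3 overlap them.

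Promoter windows were searched for a few control sequences close to an annotated start. RefSeq windows on GRCm38.p6, from 250 bases before to 50 bases after an annotated start, were matched for 7 of the 10 (Fos, Fosb, Fosl2, Junb, Jund, Btg2 and Nr4a1), and Egr1, Egr3 and Ier2 were not matched. The windows of 3 genes that rose and of Nr4a1, which was not called, are printed here 5′ to 3′ on the gene's strand, with capitals marking the CRE core TGACG, the full CRE TGACGTCA (which holds the core on both strands), the Egr site GCGNGGGCG and TATAAA, each searched on both strands.
Fos, chr12:85473640-85473939, plus strand: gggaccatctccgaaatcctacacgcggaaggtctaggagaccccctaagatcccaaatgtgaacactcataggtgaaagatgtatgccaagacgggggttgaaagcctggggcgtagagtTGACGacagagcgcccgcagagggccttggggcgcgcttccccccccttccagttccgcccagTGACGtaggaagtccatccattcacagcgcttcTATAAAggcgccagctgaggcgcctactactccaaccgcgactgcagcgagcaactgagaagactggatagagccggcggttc
Junb, chr8:84978699-84978998, minus strand: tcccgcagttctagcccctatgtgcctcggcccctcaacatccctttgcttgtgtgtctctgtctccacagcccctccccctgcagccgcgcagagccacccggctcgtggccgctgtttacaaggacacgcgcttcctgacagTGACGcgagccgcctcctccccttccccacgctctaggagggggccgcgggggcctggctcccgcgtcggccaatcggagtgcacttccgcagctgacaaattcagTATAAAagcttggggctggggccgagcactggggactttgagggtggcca
Btg2, chr1:134079106-134079405, minus strand: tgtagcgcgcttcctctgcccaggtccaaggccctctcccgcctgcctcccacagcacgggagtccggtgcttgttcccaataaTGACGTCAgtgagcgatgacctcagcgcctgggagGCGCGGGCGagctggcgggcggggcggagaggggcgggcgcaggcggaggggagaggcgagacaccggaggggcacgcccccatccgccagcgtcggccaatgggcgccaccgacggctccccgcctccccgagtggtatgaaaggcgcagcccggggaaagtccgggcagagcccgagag
Nr4a1, chr15:101266596-101266895, plus strand: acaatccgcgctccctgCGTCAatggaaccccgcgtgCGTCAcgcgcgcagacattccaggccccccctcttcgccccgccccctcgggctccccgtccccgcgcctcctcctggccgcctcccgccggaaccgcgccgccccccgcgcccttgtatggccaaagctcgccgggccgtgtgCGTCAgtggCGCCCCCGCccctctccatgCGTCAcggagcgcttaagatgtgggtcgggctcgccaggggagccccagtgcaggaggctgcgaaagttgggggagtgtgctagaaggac

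The CRE core was present in 5 of the 7 windows (Fos, Fosb, Junb, Btg2 and Nr4a1), against 20.8% of the 32851 windows in the table, and the Egr site in 4 (Fosb, Fosl2, Btg2 and Nr4a1), against 5.55%. A full CRE was found only in the Btg2 window among the 7, and in 1.79% of all windows. Fos held 2 CRE cores, beginning at positions -129 and -66 from the annotated start, and TATAAA beginning at position -33. In Junb, TATAAA lay at the RefSeq start itself, which is 30 bases upstream of the start in the counted gene model. Nr4a1 held 4 CRE cores and 1 Egr site, around a start 12577 bases inside the counted gene. The CArG box, CC then 6 letters A or T then GG, is bound by serum response factor. Exact matches to it and to the AP-1 site TGANTCA were in 0 of the 7 windows. They were in 1.63% and 7.81% of all windows. Sequence more than 250 bases before an annotated start was not searched, and near matches were not counted. The search therefore does not show that the genes lack these sites. The 7 windows ranged from 46.7 to 72.3% in GC, with a median over all windows of 52.7%, which bears on GC-rich motifs such as the Egr site. The Jund window held none of the 6 motifs, but its RefSeq start lay 1210 bases upstream of the start of the counted gene. The window thus does not cover the start of the counted gene. The RefSeq start of Fosl2 lay 671 bases inside its counted gene. A match describes letters, not binding.

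Fos, the founding partner of Jun in AP-1 (ENSMUSG00000021250, GRCm38 chromosome 12, 85473890 to 85477273), had the smallest p of the 10. Fos measured 14.4, 10.3 and 10.2 CPM in the WT libraries and 20.7, 21.6 and 22.2 CPM in the cKO libraries. WT replicate 1 was the highest control, and the 3 cKO libraries were nearly level. The means were 11.7 ± 2.41 CPM in WT and 21.5 ± 0.748 CPM in cKO nerves (SD, n = 3 each), a 1.84-fold rise (log2 fold change 0.88 ± 0.16 SE, 95% interval 0.51 to 1.25, edgeR adjusted p = 0.0108). The call was lost without WT replicate 2 or 3, with adjusted p up to 0.0614 and a log2 fold change of 0.79 in both fits.

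Fosl2 (Fra-2), a Fos relative that lacks the strong activation domain of Fos and persists longer after a stimulus, lies on chromosome 5, 32135801 to 32157842. Fosl2 stood at 32.6, 29.0 and 33.7 CPM in the WT nerves and at 54.8, 42.4 and 46.7 CPM in the cKO nerves. The groups were well apart, with cKO replicate 2 the lowest of its group. The mean went from 31.7 ± 2.46 to 48.0 ± 6.27 CPM (SD, n = 3 each), a 1.51-fold rise (log2 fold change 0.60 ± 0.12 SE, edgeR adjusted p = 0.0169). The call was kept without cKO replicate 1 or 2 and lost without any 1 of the other 4 libraries.

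Fosb, the Fos paralog known for its stable splice form in chronically stimulated neurons (chromosome 7, 19302696 to 19310051), was the least expressed of the 10 and the most variable. Fosb measured 7.34, 3.49 and 3.15 CPM in the WT libraries and 5.2, 4.2 and 9.51 CPM in the cKO libraries, resting on 115 to 333 counts per library. WT replicate 1 lay above 2 of the 3 cKO libraries. The log2 fold change was 0.44 ± 0.44 SE with a 95% interval of -0.62 to 1.5 (edgeR adjusted p = 0.504). That interval spans from a fall to a rise of over 2-fold, so these libraries do not show whether Fosb differed. It was 0.01 on leaving out cKO replicate 3 and 0.92 on leaving out WT replicate 1.

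Junb, a Jun partner that often restrains Jun at its targets (chromosome 8, 84974484 to 84978718), measured 8.63, 5.88 and 6.59 CPM in the WT libraries against 12.1, 9.65 and 11.9 CPM in the cKO libraries. WT replicate 1 was again the highest control, and the groups did not overlap. Mean Junb was 7.04 ± 1.43 CPM in WT and 11.2 ± 1.34 CPM in cKO nerves (SD, n = 3 each), a 1.59-fold rise (log2 fold change 0.67 ± 0.18 SE, edgeR adjusted p = 0.0441). Leaving out any 1 library other than cKO replicate 2 ended the call (adjusted p up to 0.168). Prdx2 overlaps 7.52% of its exonic bases on the other strand, and the counting did not use strand.

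Jund, the Jun family member that most tissues make without a stimulus, lies on chromosome 8, 70698949 to 70700616. Its WT libraries held 51.8, 47.2 and 50.1 CPM and its cKO libraries 59.3, 61.1 and 73.3 CPM, so that every cKO library was above the WT range and cKO replicate 3 the farthest. Mean Jund was 49.7 ± 2.29 CPM in WT and 64.6 ± 7.59 CPM in cKO nerves (SD, n = 3 each), a 1.3-fold rise and the smallest of the 5 (log2 fold change 0.38 ± 0.10 SE, edgeR adjusted p = 0.0473). The call was kept without cKO replicate 1 or 2, lost without any 1 of the other 4 libraries, and lost with DESeq2's size factors, with upper quartile factors and with no low-count filter (adjusted p = 0.0506, 0.0591 and 0.0658). The predicted antisense gene Gm11175 overlaps 52.6% of the exonic bases of Jund and had 0 counts in every library. Fragments inside that overlap could not be assigned by strand, so the level of Jund per length is uncertain.

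The third Jun gene, Jun, rose 1.57-fold (log2 fold change 0.65 ± 0.12 SE, edgeR adjusted p = 0.0110), its WT libraries holding 50.7, 49.5 and 57.4 CPM and its cKO libraries 87.4, 71.0 and 88.7 CPM, and the call was lost without WT replicate 1 or 2. Fosl1 (Fra-1), the remaining Fos gene, was not called (-0.31, edgeR adjusted p = 0.322). Summed over each family as CPM per kilobase of exonic length, Fos genes stood at 11.8, 9.19 and 9.52 in WT and 16.4, 15.2 and 16.6 in cKO libraries. Jun genes stood at 50.7, 46.4 and 50.9 in WT and 68.2, 63.1 and 76.9 in cKO libraries. The cKO libraries were thus above the WT libraries for both sets of AP-1 genes, an order that 21.0% of all genes tested showed. Jund, of uncertain level per length, made up 60.4 ± 1.25% of the Jun family sum in WT nerves (SD, n = 3). That sum and the shares in it are therefore uncertain too. Within the families, Fosl1 made up 11.8 ± 2.27% of the Fos family sum in WT and 5.93 ± 1.1% in cKO nerves (SD, n = 3 each), without overlap. Fos made up 48.5 ± 3.35% of the Fos family sum in WT and 57.0 ± 3.51% in cKO nerves (SD, n = 3 each), and Junb 6.18 ± 1.06% and 7.02 ± 0.579% of the Jun family sum.

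Of the log2 ratios of 2 genes within a library, that of Fos to Fosl2 was 0.31 higher in cKO than in WT nerves (exact permutation p = 0.2, 2-sided), that of Junb to Jund 0.31 higher (exact p = 0.3) and that of Fos to Jun 0.26 higher (exact p = 0.4). With 3 libraries against 3 the smallest p such a test can give is 0.1, and over the 4 ratios compared the adjusted p was 0.4 for each. The WT and cKO libraries overlapped in all of these 3 ratios, and that of Junb to Jund rests on the uncertain level of Jund.

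Egr1 (Krox24, Zif268), a zinc finger factor induced by growth factor signalling (chromosome 18, 34859823 to 34864984), had the largest estimate of the 10 but just missed the threshold. Egr1 measured 23.1, 12.4 and 13.6 CPM in the WT libraries against 38.8, 25.7 and 31.9 CPM in the cKO libraries. The groups did not overlap, but WT replicate 1 came close to cKO replicate 2. The means were 16.4 ± 5.84 and 32.1 ± 6.54 CPM (SD, n = 3 each), with a log2 fold change of 0.97 ± 0.27 SE (95% interval 0.32 to 1.63, edgeR adjusted p = 0.0531). DESeq2 called it (adjusted p = 0.00353), as did edgeR without WT replicate 1 (1.3, adjusted p = 0.0265). That was the 1 call among the 6 edgeR fits with a library left out (adjusted p up to 0.174).

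Egr3, a relative that acts downstream of neuregulin in muscle spindles and with Egr1 on the neurotrophin receptor gene Ngfr (chromosome 14, 70077203 to 70082614), went the other way without being called. Egr3 stood at 48.4, 35.2 and 37.0 CPM in the WT nerves and at 35.9, 16.4 and 34.7 CPM in the cKO nerves. cKO replicates 1 and 3 lay at the level of WT replicates 2 and 3, and cKO replicate 2 was far below. The log2 fold change was -0.47 ± 0.31 SE (95% interval -1.22 to 0.29, edgeR adjusted p = 0.326), and -0.19 without cKO replicate 2. Ngfr itself was not called (-0.18, edgeR adjusted p = 0.562).

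Egr2 (Krox20), the Egr factor of myelinating Schwann cells, fell 3.38-fold, its WT libraries holding 137, 138 and 143 CPM and its cKO libraries 53.4, 26.3 and 43.8 CPM (edgeR adjusted p = 0.00608), and stayed called whichever library was left out. Egr4 had 0 counts in 5 libraries and was not tested. The ratio of Egr1 to Egr2 per length was 0.128, 0.0683 and 0.0721 in WT and 0.551, 0.740 and 0.551 in cKO libraries. It was thus higher in every cKO library, by 2.83 on the log2 scale (exact permutation p = 0.1, 2-sided, the smallest that 3 against 3 allows). Egr1 made up 6.73 ± 2.08% of the Egr family sum per kilobase in WT and 28.5 ± 4.24% in cKO nerves (SD, n = 3 each), and Egr2 76.4 ± 4.29% and 46.5 ± 1.68%.

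**Figure D2:**
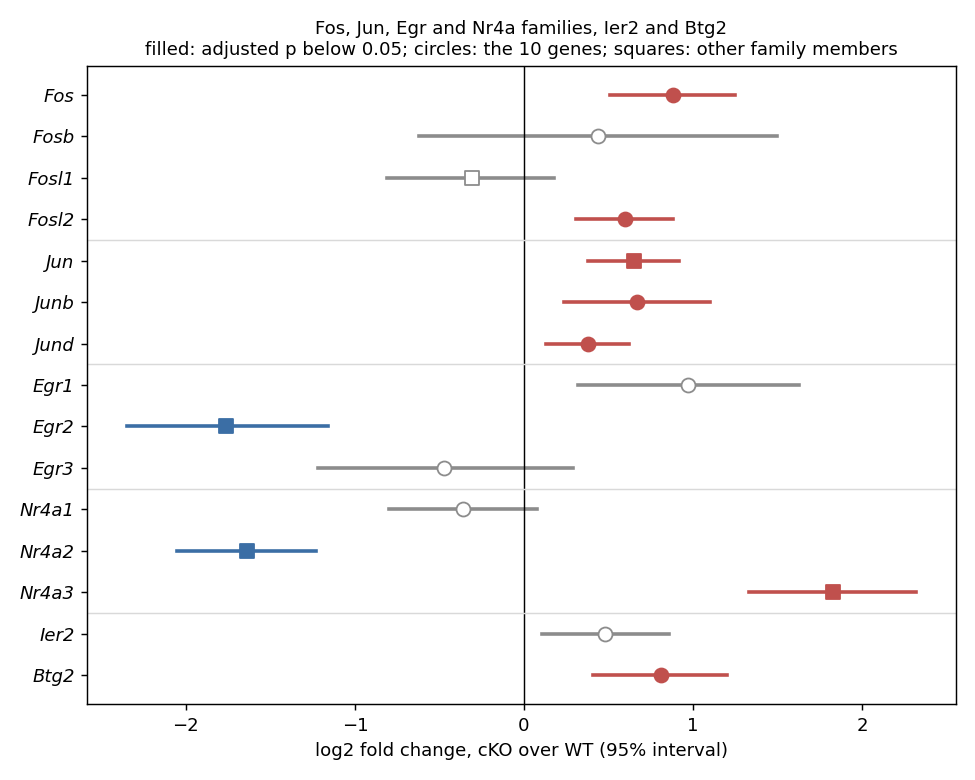
Log2 fold change of cKO over WT with its 95% interval (horizontal axis) for the Fos, Jun, Egr and Nr4a genes tested and for Ier2 and Btg2. Circles are the 10 immediate early genes, squares their other family members, and filled symbols were called by edgeR. The tested Jun genes lie together to the right of 0, whereas the Egr and Nr4a families spread to both sides, from -1.76 for Egr2 to 1.83 for Nr4a3.

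Nr4a1 (Nur77), an orphan nuclear receptor induced by growth factors and calcium (chromosome 15, 101254269 to 101274795), had the highest measured level per length of the 10 in WT nerves, with that of Jund uncertain. Nr4a1 measured 120, 117 and 115 CPM in the WT libraries against 111, 65.3 and 97.5 CPM in the cKO libraries. The WT libraries were tight, and the spread of the cKO libraries came mostly from replicate 2. Although every cKO library was below the WT range, the log2 fold change of -0.36 ± 0.19 SE (95% interval -0.80 to 0.08) was not called (edgeR adjusted p = 0.212), nor was it by DESeq2 (adjusted p = 0.189). Without cKO replicate 2 it was -0.17 (edgeR adjusted p = 0.112).

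The other Nr4a receptors moved apart. Nr4a2 (Nurr1) fell 3.12-fold, from 50.4, 49.0 and 51.8 CPM in WT to 18.6, 12 and 18 CPM in cKO libraries (log2 fold change -1.64 ± 0.17 SE, edgeR adjusted p = 0.00186). Nr4a3 (Nor1) rose 3.55-fold, from 2.20, 1.59 and 1.45 CPM to 6.68, 5.49 and 6.37 CPM (1.83 ± 0.21 SE, edgeR adjusted p = 0.00239). Both stayed called whichever library was left out. Per kilobase, Nr4a1 still made up most of the family, 72.5 ± 0.737% in WT and 83.7 ± 0.983% in cKO nerves (SD, n = 3 each), while Nr4a2 went from 26.9 ± 0.820% to 12.9 ± 0.558%.

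Btg2 (Tis21, Pc3), an antiproliferative gene and p53 target (chromosome 1, 134075170 to 134079120), measured 13, 13.5 and 14.5 CPM in the WT libraries against 22.6, 29.9 and 19.4 CPM in the cKO libraries. Here cKO replicate 2 was the highest library, unlike for the other genes that rose. Mean Btg2 was 13.7 ± 0.735 CPM in WT and 24.0 ± 5.39 CPM in cKO nerves (SD, n = 3 each), a 1.75-fold rise (log2 fold change 0.81 ± 0.17 SE, edgeR adjusted p = 0.0191). The call was kept without any 1 cKO library and lost without any 1 WT library (adjusted p up to 0.0933).

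Ier2 (Pip92), a small nuclear protein induced with Fos (chromosome 8, 84661331 to 84662852), measured 17.4, 14.9 and 18.9 CPM in the WT libraries against 26.3, 19.2 and 26.0 CPM in the cKO libraries. Its lowest cKO library, replicate 2, stood just above the highest WT library. The log2 fold change was 0.48 ± 0.16 SE (95% interval 0.11 to 0.86, edgeR adjusted p = 0.0757, DESeq2 adjusted p = 0.0554). It was called without cKO replicate 2 (0.62, edgeR adjusted p = 0.000665). This was the 1 call among the 6 edgeR fits with a library left out (adjusted p up to 0.257).

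By level per kilobase of exonic length in WT nerves, the order ran from Nr4a1 (33.5 ± 0.733 CPM per kilobase) and Jund (29.8 ± 1.37) through Ier2 (11.2 ± 1.32), Egr3 (9.12 ± 1.62), Btg2 (4.99 ± 0.268), Fos (4.96 ± 1.03), Egr1 (3.65 ± 1.3), Fosl2 (3.28 ± 0.254) and Junb (3.06 ± 0.621) to Fosb (0.746 ± 0.373) (SD, n = 3). Neighbours whose WT libraries overlapped were Ier2 and Egr3, and each successive pair from Btg2 to Junb, so these places in the order are not separated. In cKO nerves Jund stood at 38.7 ± 4.55 and Nr4a1 at 26.0 ± 6.69 CPM per kilobase (SD, n = 3). Because fragments in the overlap of Jund with Gm11175 could not be assigned, the place of Jund relative to Nr4a1 is uncertain in both groups.

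Most of the 10 genes shared high and low libraries inside a group. WT replicate 1 was above the mean of the WT libraries for 9 of the 10 and the highest of them for 7, by 0.76 on the log2 scale for Fosb, 0.55 for Egr1, 0.33 for Fos, 0.31 for Junb and 0.28 for Egr3. WT replicate 2 was above that mean for 0 of the 10. For comparison, the median absolute deviation of a tested gene from its group mean was 0.08 in WT replicate 1. Among cKO libraries, replicate 2 was the lowest for 7 of the 10, by -0.73 for Egr3, -0.49 for Fosb and -0.45 for Nr4a1, whereas Btg2 was highest there, by 0.34. Btg2 ran against the common pattern of deviations from the group means (r = -0.714 over the 6 libraries, a description), and the other 9 had r from 0.516 for Jund to 0.977 for Junb. That pattern is the mean over the 10 genes themselves, which raises the r of each. The median absolute deviation over all tested genes in cKO replicate 2 was 0.21. That library was also the one rich in muscle markers, whose part in its levels of the 10 genes was not tested.

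**Figure D3:**
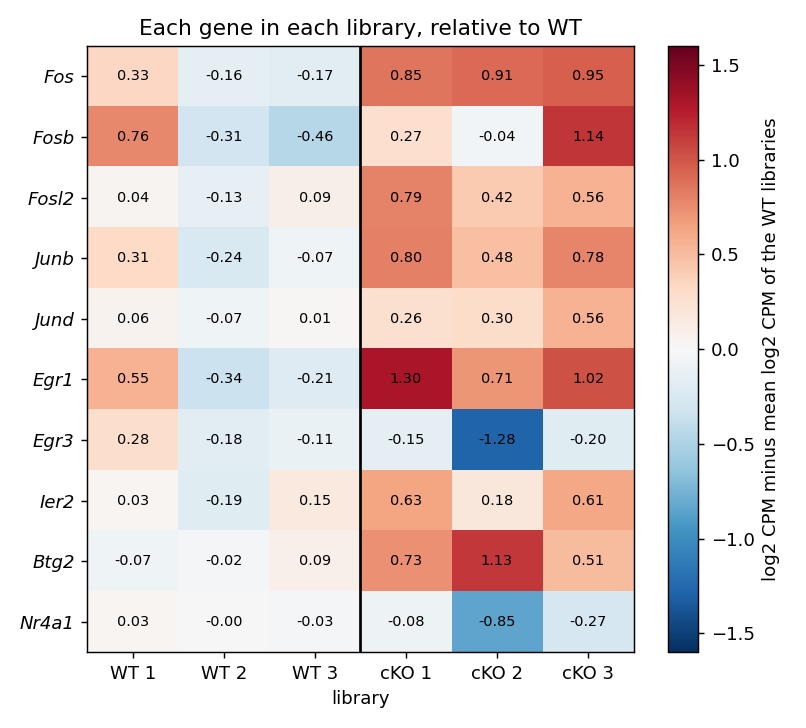
Log2 CPM of each of the 10 genes (rows) in each library (columns) minus the mean log2 CPM of the WT libraries, with red above and blue below. WT replicate 1 is above its group for Fos, Fosb, Junb, Egr1 and Egr3, and cKO replicate 2 is the lowest library for Egr3 (-1.28) and Nr4a1 (-0.85) but the highest for Btg2 (1.13).

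The genes whose log2 CPM over the 6 libraries was most like the mean standardised pattern of the 10, among tested genes of average log2 CPM of at least 3, were Gas2l1 (r = 0.997), Sdc1 (0.995), Prex2 (0.978), BC029722 (0.977) and Arfgap1 (0.976). None of these 5 was called by edgeR, with log2 fold changes from 0.14 for Arfgap1 to 0.43 for Prex2. Junb (0.979) and Egr1 (0.960) were the members closest to that pattern, to which each member contributes, and Egr3 (0.005) and Nr4a1 (-0.181) the farthest. On deviations from the group means, the most alike were Fasn (0.995), Slc38a7 (0.989), Gm15429 (0.989), Brsk1 (0.987) and Slc36a1 (0.987), all of negative log2 fold change. Each r is taken over 6 libraries that share depth and composition among genes, and is a description.

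Of 40 further immediate early genes, 39 were tested, of which 10 rose, 3 fell and 26 were not called, with a median log2 fold change of 0.37. Shares of 25.6% higher and 7.69% lower stand beside 8.55% and 10.3% of all genes tested, for a list also chosen with earlier results known. Myc, a growth regulator, was 8.25 ± 0.643 CPM in WT and 23.0 ± 4.69 CPM in cKO nerves (SD, n = 3 each), a 2.78-fold rise (edgeR adjusted p = 0.00229). Ccn1 (Cyr61), a matricellular protein gene and YAP target, had a log2 fold change of 0.65, Nfkbia, the inhibitor of NF-kappaB, 0.63, and Ier3, a survival gene, 0.71. Myc, Nfkbia and Ccn1 stayed called whichever library was left out, and Ier3 did in 4 of these 6 fits. With Jun and Nr4a3, the remaining genes that rose were Atf3 (0.93), Dusp1 (0.55), Gadd45b (0.68) and Ptgs2 (1.85), these 4 named after their values were seen. Besides Egr2 and Nr4a2, Ppp1r15a (GADD34), which reverses the stress block on translation, fell (-0.80, edgeR adjusted p = 0.0356, kept in 2 of the 6 fits). Without cKO replicate 2, 22 rose and 3 fell (17.8% of all genes higher, 17.6% lower). Without any 1 WT library 5 rose and 2 fell, with 2.33 to 2.50% of all genes higher.

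Of 28 genes of the signalling path and promoter factors upstream, 6 fell and 0 rose by edgeR, with a median of 0.00. The 21.4% lower and 0% higher stand beside 10.3% and 8.55% of all genes tested. DESeq2 also called 0 higher. At an unadjusted edgeR p below 0.05, 3 were higher and 9 lower, against 17.2% and 17.3% of all genes. Among the genes that fell were the GTPase gene Nras (-0.66), the kinase genes Braf (-0.56) and Mapk3 (ERK1, -0.61), and the CREB coactivator genes Crtc1 and Crtc3 (both -0.48). Nras measured 219, 225 and 211 CPM in the WT libraries against 136, 154 and 124 CPM in the cKO libraries. Of the 6 fits with a library left out, Nras was called in 6, Crtc3 in 4, Braf in 3, Mapk3 in 2 and Crtc1 in 1. Srf, which encodes serum response factor, was not called (0.34, edgeR adjusted p = 0.265). Leaving out cKO replicate 2 gave 3 that rose and 8 that fell (17.8% of all genes higher, 17.6% lower).

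Among 12 feedback genes of the ERK path, the phosphatase gene Dusp4 fell (-1.12, edgeR adjusted p = 0.0111), a call lost without WT replicate 1, and 0 rose by edgeR. The share that fell, 8.33%, was near the 10.3% of all genes tested. DESeq2 called 1 higher. At an unadjusted edgeR p below 0.05, 1 was higher and 2 lower, against 17.2% and 17.3% of all genes. The median of the 12 was 0.07. With cKO replicate 2 left out, 4 rose and 1 fell (17.8% of all genes higher, 17.6% lower). Of 10 partners and targets of AP-1 and Egr, 1 rose and 2 fell, with a median of -0.15. The 10% higher and 20% lower stand beside 8.55% and 10.3% of all genes. The genes that fell were Nab1, an Egr corepressor (-0.35, edgeR adjusted p = 0.0242), and Maf (-0.41, edgeR adjusted p = 0.0398), each called in 2 of the 6 fits with a library left out. Leaving out cKO replicate 2, 2 partners rose and 2 fell.

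Of 16 heat shock genes, which encode stress-induced chaperones and their helpers, 0 rose and 1 fell by edgeR, with a median of 0.24. Of all genes tested, 8.55% rose and 10.3% fell. DESeq2 called 1 heat shock gene higher. At an unadjusted edgeR p below 0.05, 1 was higher and 1 lower, against 17.2% and 17.3% of all genes. Dnaja1, a co-chaperone, was the gene that fell (-0.32, edgeR adjusted p = 0.0377, kept in 2 of the 6 fits). With cKO replicate 2 left out, 1 rose and 1 fell (17.8% of all genes higher, 17.6% lower). The summed share of heat shock genes in the counts was 0.261 to 0.268% in WT and 0.269 to 0.305% in cKO libraries.

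Markers of several cell types were also called. The counts by edgeR stand beside 8.55% of all genes tested called higher and 10.3% called lower. Of 13 macrophage markers 11 rose and 0 fell, with a summed share of 0.0798 to 0.0927% of counts in WT and 0.115 to 0.198% in cKO libraries. Of 6 mast cell markers 5 rose and 0 fell (0.0183 to 0.0224% and 0.0260 to 0.0393%), and of 10 fibroblast markers 4 rose and 0 fell (3.5 to 3.55% and 3.13 to 4.74%). The fibroblast ranges overlapped, with cKO replicate 2 below the WT range and cKO replicates 1 and 3 above it (4.74 and 4.56%). Of 7 erythroid markers 4 rose and 0 fell (0.271 to 0.396% and 0.722 to 2.29%), and of 10 endothelial markers 1 rose and 0 fell (0.0647 to 0.0684% and 0.0732 to 0.0802%). The endothelial share, 10%, was near that of all genes. Of 12 Schwann cell markers 8 fell and 1 rose. Without cKO replicate 2 the markers that rose were 12 of macrophages, 5 of mast cells, 7 of fibroblasts, 0 erythroid, 1 endothelial and 2 of Schwann cells, and 9 Schwann cell markers fell. In that fit 17.8% of all genes were higher and 17.6% lower. Leaving out any 1 WT library left 3 to 4 macrophage, 0 to 1 mast cell and 0 to 1 erythroid markers called higher. Of fibroblast markers 4 stayed called higher in each of those fits, and of endothelial markers 1. The share of all genes called higher was 2.33 to 2.50% in those fits. None of these markers was at 0 in all libraries. Their part in the levels of the immediate early genes, which many of these cell types express, was not tested. Of 15 skeletal muscle markers 0 were called by edgeR, 1 being higher at an unadjusted p below 0.05, and without cKO replicate 2, 2 rose and 1 fell. In that fit the log2 fold change was 0.88 for Fos, 0.68 for Fosl2, 0.77 for Junb, 0.41 for Jund and 0.62 for Btg2. With all 6 libraries these were 0.88, 0.60, 0.67, 0.38 and 0.81. The part of muscle in these values was not tested.

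**Figure D4:**
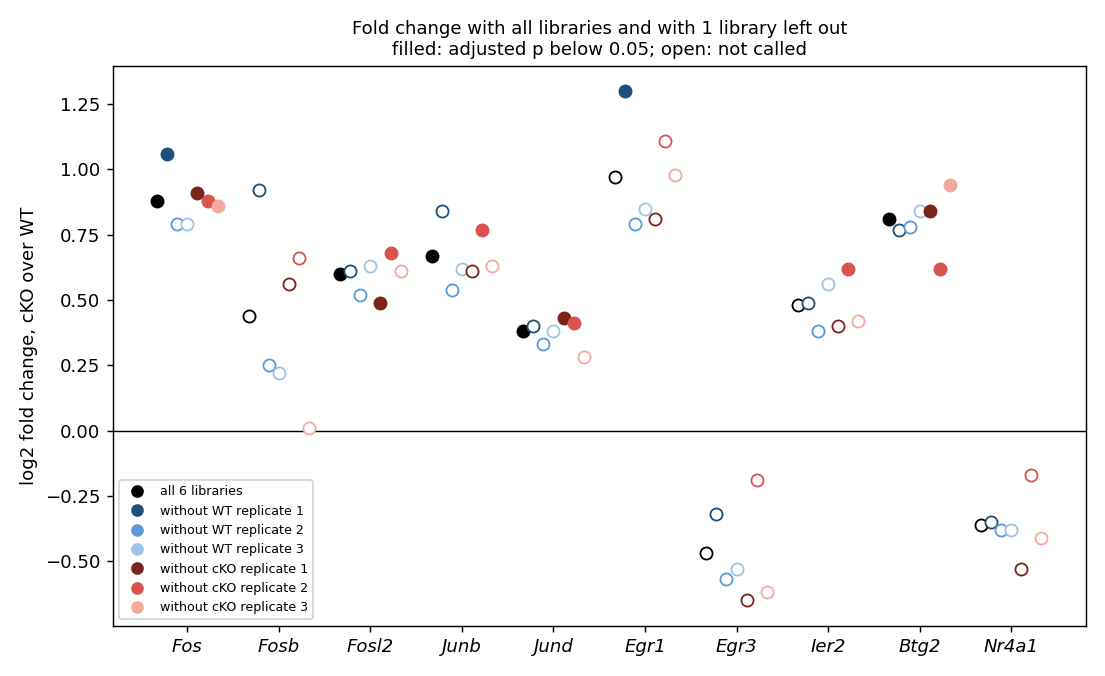
Log2 fold change of cKO over WT (vertical axis) for each of the 10 genes with all 6 libraries (black) and without each library in turn (blues, a WT library left out; reds, a cKO library left out), filled where edgeR called the gene. Signs are kept throughout, Fosb ranges from 0.01 to 0.92, and no gene is called without WT replicate 2 or 3.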

How the data were processed

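RNA of 3 WT and 3 cKO nerve libraries was sequenced on an Illumina instrument, per the labels' protocols. The authors deposited 1 table of counts of fragments per gene, with no normalization, and the exonic length of each gene as another column. Per the file headers, featureCounts 1.6.1 counted exons of Ensembl GRCm38 release 95, keeping pairs whose 2 ends aligned with a mapping quality of at least 20, on either strand. Subread 2.0 and DESeq2 1.3 are named in the submitters' processing notes, and the sources used here do not give alignment settings. Symbols came from GENCODE M21 (same build) for 54723 of 54838 identifiers. All rows named a gene, so 0 were left out.

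The test was edgeR 4.0.16 in R 4.3.3 (filterByExpr with a minimum count of 10, TMM, robust quasi-likelihood F test, 2-sided, 4 residual degrees of freedom), Benjamini-Hochberg adjusted over 18775 genes. Standard errors and 95% intervals derive from the quasi-likelihood statistic. DESeq2 1.42.0 was an alternative. Counts of any 2 replicates of a group differed beyond sampling error (8.98 to 345.8 as chi-square over degrees of freedom), so each was counted once. The fit was tested on simulated data.

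The members and lists were chosen with earlier results of these data known. Named genes were the 10; Jun and Egr2; of each further list the called genes with the smallest p, up to 6 per direction; and the 5 genes most alike by each of 2 measures. No 50-base word of the members' transcripts occurred in a gene elsewhere. Coordinates are those of the deposited table. Results on some genes that this rule names are not reported here.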

Additional observations from a re-analysis of the deposited data

How the results depend on the processing

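Counts of called genes depended on the libraries more than on the method. Over all genes, 1605 were higher and 1929 lower. Fits that left out a library gave 449 to 3425 higher and 790 to 3398 lower. For the 10 immediate early genes these fits gave 0 to 6 higher and a median log2 fold change of 0.45 to 0.69. For the 40 further immediate early genes they gave 5 to 22 higher and 2 to 3 lower, for the upstream genes 0 to 3 and 1 to 8, for the ERK feedback genes 0 to 4 and 0 to 1, for the AP-1 and Egr partners 1 to 2 and 0 to 2, and for the heat shock genes 0 to 1 each way. Fits without a library have fewer samples; what else moves their counts was not tested.

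With the replicate number as a block, 744 genes were higher and 1108 lower, 6 of the further immediate early genes were higher, and 0 AP-1 and Egr partners and 0 heat shock genes were lower. Of the 10 genes, 4 were called in that fit, Egr1 among them (edgeR adjusted p = 0.0153) and Junb (0.0564) and Jund (0.101) not. Libraries of the same number did not deviate together (r = -0.22, -0.23 and -0.08 over genes). With 3 libraries per group, this cannot decide whether they share more than a number. DESeq2 called 1 ERK feedback gene and 1 heat shock gene higher. Upper quartile factors gave 1 heat shock gene higher and 0 lower, and 0 AP-1 and Egr partners lower. With no low-count filter 1 heat shock gene was higher and 0 lower. Of 330 values of single named genes under an alternative, 253 kept direction and call, 73 kept direction and lost the call, 4 gained it and 0 changed sign. The log2 differences of the 4 ratios kept their sign in every fit that left out a library: 0.18 to 0.45 for Fos to Fosl2, 0.20 to 0.44 for Junb to Jund, 2.66 to 3.12 for Egr1 to Egr2 and 0.11 to 0.45 for Fos to Jun.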
